A study of Homo sapiens with 3 samples.

Results

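ZFP36 and BTG/TOB proteins are factors of mRNA decay, and their transcripts were followed here in PANC-1 cells, an established human pancreatic ductal carcinoma line, after cantharidin (CAN) or okadaic acid (OA). The group held ZFP36, ZFP36L1 and ZFP36L2, the family members BTG1, BTG2, BTG3, TOB1 and TOB2, the nuclease gene ZC3H12A and the RNA-binding protein gene ELAVL1. The genes were listed by function, with earlier results of these data known. Every array probe whose RefSeq accession belonged to 1 of them was taken. This gave 10 of the 19699 named genes, with 11 of the 34041 probes, since ZFP36L1 had 2 probes. There were 3 arrays, 1 each of total RNA from untreated control cells, from cells given 20 µM CAN and from cells given 20 µM OA, both for 24 h. The labels gave no vehicle for the control cells and named no genetic change in any group. The OA dose is that of its sample label, and the wording of the treatment protocol leaves it unclear. Both compounds inhibit serine/threonine phosphatases, above all protein phosphatase 2A. Cantharidin is a small anhydride made by blister beetles, and okadaic acid is a much larger polyether toxin of marine algae. Since each group had 1 array, the spread between cultures was not measured, and differences between arrays are given without a test.

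ZFP36 (tristetraprolin) and its relatives ZFP36L1 and ZFP36L2 bind AU-rich elements of short-lived mRNAs, such as those of cytokines and immediate early genes, and bring in the CCR4-NOT deadenylase, which shortens the poly(A) tail. BTG and TOB proteins carry a domain that binds the CCR4-NOT catalytic subunits, and several of them slow cell growth when overproduced. ZC3H12A (regnase-1) cuts inflammatory mRNAs at stem-loops, whereas ELAVL1 (HuR) binds AU-rich elements and as a rule protects the transcript. The activity of ZFP36 is held down by phosphorylation through p38 and MAPKAPK2, and the phosphate is removed by protein phosphatase 2A. Several of these genes, among them ZFP36 and BTG2, are themselves immediate early genes.

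Of the 10 genes, 8 had a promoter in the RefSeq table of GRCh38.p14, with 10 start sites between them, and ZFP36L2 and ELAVL1 had none there. The 250 bases before the start are shown for BTG2 and ZC3H12A because their differences from control under the agents were the closest of any pair of the group, and for both starts of ZFP36L1 because its signal lay on opposite sides of control under the agents. BTG2 is on the + strand at chr1:203305269-203305518, ZC3H12A on the + strand at chr1:37474330-37474579, and the starts of ZFP36L1 on the - strand at chr14:68793417-68793666 (start A) and chr14:68796244-68796493 (start B). Each is printed 5′ to 3′ in the direction of the gene. Capitals mark TGACG, the core of the cAMP response element, on either strand (CGTCA when it lies on the opposite one).

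BTG2: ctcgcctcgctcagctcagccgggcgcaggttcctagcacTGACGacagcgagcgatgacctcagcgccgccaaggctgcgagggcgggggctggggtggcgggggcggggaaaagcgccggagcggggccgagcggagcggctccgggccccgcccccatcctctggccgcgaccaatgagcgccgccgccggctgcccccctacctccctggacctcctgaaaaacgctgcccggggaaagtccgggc

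ZC3H12A: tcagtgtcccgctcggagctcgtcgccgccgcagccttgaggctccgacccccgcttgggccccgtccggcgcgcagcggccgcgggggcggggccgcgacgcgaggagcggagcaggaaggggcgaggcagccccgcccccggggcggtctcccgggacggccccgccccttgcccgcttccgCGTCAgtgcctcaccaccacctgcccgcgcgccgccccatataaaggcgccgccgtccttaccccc

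ZFP36L1 start A: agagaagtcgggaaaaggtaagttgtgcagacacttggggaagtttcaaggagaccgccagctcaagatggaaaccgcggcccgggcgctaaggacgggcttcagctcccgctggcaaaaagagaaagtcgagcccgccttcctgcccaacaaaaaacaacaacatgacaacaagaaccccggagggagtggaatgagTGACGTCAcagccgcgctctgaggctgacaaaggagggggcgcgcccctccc

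ZFP36L1 start B: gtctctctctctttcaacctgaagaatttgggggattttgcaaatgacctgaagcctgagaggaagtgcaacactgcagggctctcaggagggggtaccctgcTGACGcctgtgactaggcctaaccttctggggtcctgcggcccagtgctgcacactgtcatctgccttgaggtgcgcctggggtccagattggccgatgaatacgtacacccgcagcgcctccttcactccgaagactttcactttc

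TGACG was present in 6 of the 10 promoters, from 5 genes (BTG1, BTG2, TOB1, ZC3H12A and ZFP36L1), against 21.2% of all 35116 promoters of this length. Start A of ZFP36L1 held the whole palindrome TGACGTCA, which was present in 1.65% of all promoters and in no other of the group. Because TGACGTCA contains TGACG on both strands, this site counts for both motifs. The GC box GGGCGG was found in 7 of the 10 promoters, against 42.6% of all. None of the 10 held TGANTCA, a CArG box or an NF-κB site, which were present in 6.57%, 1.16% and 9.96% of all promoters. The promoters of BTG2 and ZC3H12A were rich in GC, at 74.8% and 78.8%, and those of ZFP36L1 were at 58.4% and 56.4%, against a median of 58.0% over the table. The motifs were searched on both strands and were chosen after these sequences had been seen, and a match of letters is not a binding site.

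All 11 probes were well above background on all 3 arrays, and none of their spots was saturated. Of all probes, between 23071 and 25103 were well above background on an array, and the lowest intensity of such a probe was between 21.9 and 58.0. Levels are given below as processed intensity, unscaled. Differences are on the log2 scale, with every array first divided by its 75th percentile of intensity, which was 784 for control, 713 for CAN and 936 for OA. The error given with a difference is the SD that spot noise alone would produce with 1 spot per array. It was taken from probes of like brightness among the 999 that had 10 spots. For ZFP36L2, averaged over 10 spots, the error overstates the spot noise of the mean. The error does not cover variation between cultures or hybridisations. A gene was called higher or lower at 1.5-fold, the threshold of the study. The arrays lay on 1 slide, so the position on the slide and the group cannot be told apart. In bulk RNA, fewer cells with a transcript and less of it per cell cannot be told apart either.

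Under CAN, 6 of the 10 genes had a higher signal than in control cells, namely ZFP36L2, BTG1, BTG2, BTG3, TOB2 and ZC3H12A. ZFP36L1 and ELAVL1 were lower, and ZFP36 and TOB1 were within 1.5-fold. Thus 8 of 10 passed the threshold in either direction. Over all 16644 genes compared, 27.5% were called higher, 34.1% lower and 61.6% either way. The median difference of the group was 1.36, while that of all genes was -0.16. Under OA, 8 of the 10 were higher, ELAVL1 was lower and ZFP36 was within 1.5-fold, where 28.1% of 16166 genes were called higher, 28.8% lower and 56.9% either way. The median of the group was 1.32 and that of all genes 0.01. Both comparisons used the same control array, and the group was chosen with earlier results of these data known, so these counts are a description. Between the treated arrays, 6 genes were higher under OA than under CAN (ZFP36L1, ZFP36L2, BTG2, TOB1, ZC3H12A and ELAVL1), none was lower and 4 were within 1.5-fold, with 29.5% of 16200 genes called higher, 22.3% lower and 51.8% either way. The median was 0.78 for the group and 0.13 for all genes.

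**Figure D1:**
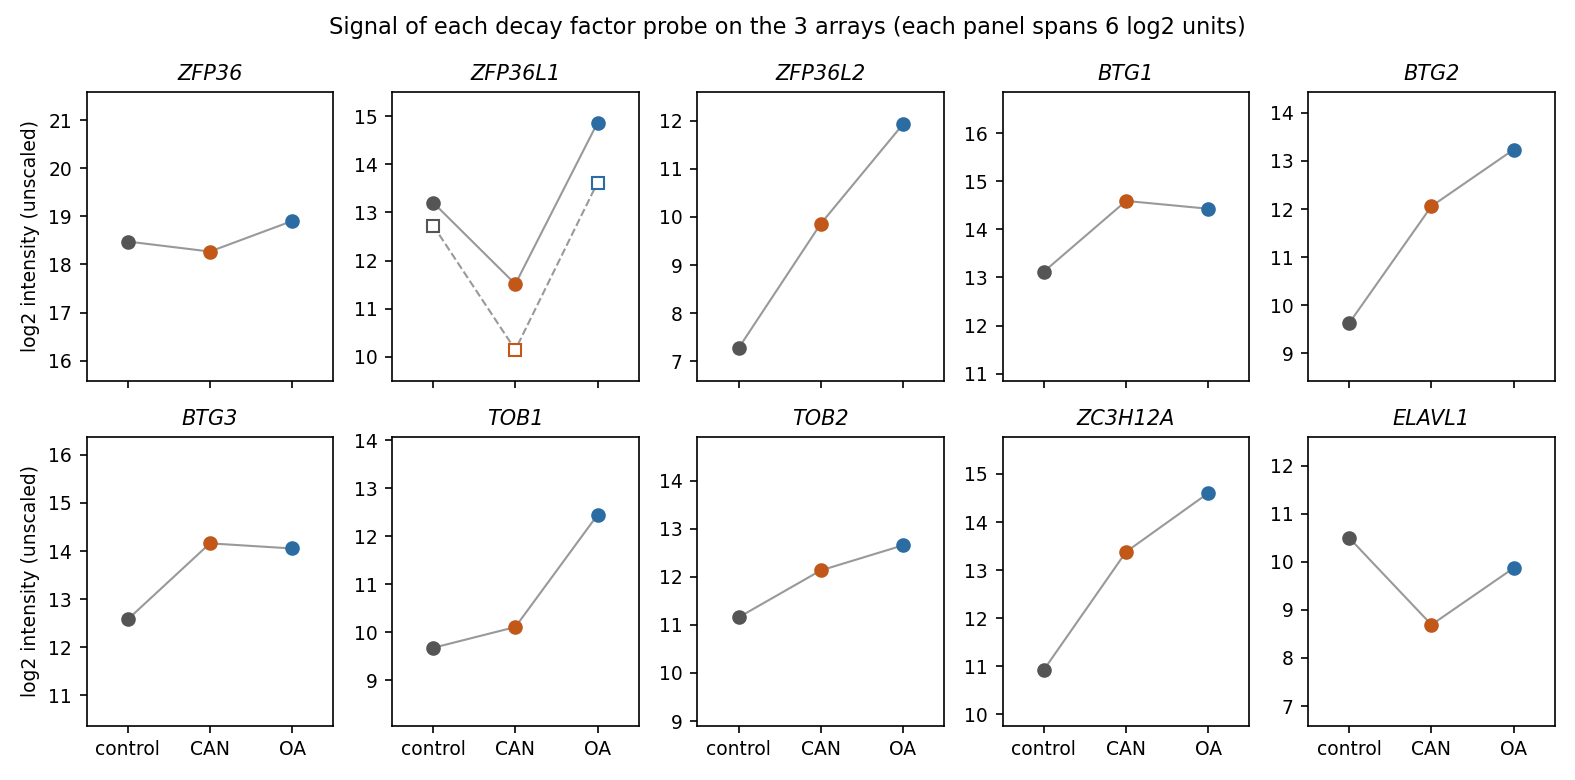
Signal of each decay factor on the control, cantharidin (CAN) and okadaic acid (OA) arrays. The vertical axis is log2 of the unscaled processed intensity and spans the same number of log2 units in every panel, and each point is 1 array. Open squares with a dashed line are the dimmer probe of ZFP36L1. ZFP36 stays nearly level, ZFP36L1 dips under CAN and peaks under OA, and ZFP36L2, BTG2 and ZC3H12A step up from control to CAN to OA.

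The 3 genes of the ZFP36 family behaved in 3 different ways. ZFP36 itself, the best studied of them, had an intensity of 364866 in control cells, 315818 under CAN and 490321 under OA. These spots were bright, with raw medians at 42.2%, 38.4% and 60.1% of the saturation value. After scaling, ZFP36 was within 1.5-fold in every comparison. Its difference from control was -0.07 ± 0.09 under CAN and 0.17 ± 0.08 under OA, so the former was smaller than the spot noise.

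ZFP36L1 was the gene of the group with opposite directions. The brighter of its probes had an intensity of 9446 in control cells, 2918 under CAN and 29829 under OA. The other probe had 6787, 1132 and 12585. Both were thus lowest on the CAN array and highest on the OA array. The brighter probe was 2.94-fold lower under CAN (log2 difference -1.56 ± 0.09) and 2.65-fold higher under OA (1.40 ± 0.07). The dimmer probe was 5.45-fold lower under CAN (-2.45) and 1.55-fold higher under OA (0.64), so the probes had the same directions and differed in size. OA exceeded CAN 7.78-fold on the brighter probe and 8.46-fold on the dimmer one.

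ZFP36L2, which is needed for blood cell formation, gave the largest difference of the group under OA, and under CAN the largest except with another background correction given below. It had 10 spots per array, with a mean intensity of 154 in control cells, 927 under CAN and 3890 under OA. The control signal was 4.41 times the lowest intensity well above background on that array. The order was control, CAN, OA, with the steps far wider than the SD among its spots, which was between 0.039 and 0.094 on the log2 scale. ZFP36L2 was 6.61-fold higher under CAN (2.72 ± 0.12), 21.1-fold higher under OA (4.40 ± 0.11) and 3.19-fold higher under OA than under CAN (1.68 ± 0.09). Its control signal was low enough for the background correction to matter. With normexp, a model-based correction, the differences were 2.19 and 3.74, and the CAN value then ranked below those of ZC3H12A (2.52) and BTG2 (2.41). Under CAN these 3 genes also lay close together as processed here, with ZFP36L2 at 2.72, ZC3H12A at 2.59 and BTG2 at 2.57. Their order was not tested. In the deposited normalized table the differences of ZFP36L2 were 3.01 and 4.66.

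Among the 5 BTG/TOB genes, 4 were higher under CAN and all 5 under OA, with medians of 1.61 and 1.24. Over all genes, 27.5% were called higher under CAN and 28.1% under OA. BTG2, a p53-inducible gene and an immediate early gene, had an intensity of 793 in control cells, 4269 under CAN and 9655 under OA. It was lowest in control cells and highest under OA, 5.92-fold above control under CAN (2.57 ± 0.09) and 10.2-fold under OA (3.35 ± 0.08). OA exceeded CAN 1.72-fold.

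BTG1 and BTG3 had a different order, with the CAN signal above the OA signal. BTG1, first known from a chromosomal translocation of B-cell leukaemia, had an intensity of 8913 in control cells, 24687 under CAN and 22065 under OA. It was 3.05-fold higher under CAN (1.61 ± 0.08) and 2.07-fold higher under OA (1.05 ± 0.07). BTG1 stands in the list of genes that the study chose on these same arrays, so its direction here is not independent evidence. The study also measured BTG1 by real-time PCR in PANC-1 cells given cantharidin with or without kinase pathway inhibitors. It reports that each inhibitor, of ERK, JNK, PKC or NF-κB, attenuated the rise of BTG1 under cantharidin. For BTG3, a target of p53 that binds E2F1, the intensity was 6113 in control cells, 18295 under CAN and 16991 under OA. The gene was 3.29-fold above control under CAN (1.72 ± 0.09) and 2.33-fold under OA (1.22 ± 0.07). The scaled OA signal was below the CAN signal by 1.47-fold for BTG1 and 1.41-fold for BTG3, both short of the threshold (-0.56 and -0.50). With each array scaled to its median in place of the 75th percentile, both passed it, at -0.71 and -0.65.

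TOB1 and TOB2, the larger proteins of the family, which also bind the poly(A)-binding protein, differed from each other. TOB1 had an intensity of 820 in control cells, 1106 under CAN and 5564 under OA. Control and CAN were close, and OA stood apart. The gene was 1.48-fold above control under CAN (0.57 ± 0.09) and 5.69-fold under OA (2.51 ± 0.07), and OA exceeded CAN 3.83-fold. The CAN value lay next to the threshold, on either side of it depending on the processing (0.43 to 0.64). TOB2 had 2280 in control cells, 4485 under CAN and 6437 under OA. It was 2.17-fold higher under CAN (1.11 ± 0.09) and 2.37-fold higher under OA (1.24 ± 0.07). The treated arrays differed 1.09-fold for TOB2 after scaling (0.13 ± 0.09), which is little more than the spot noise.

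ZC3H12A, the endonuclease, had an intensity of 1950 in control cells, 10661 under CAN and 24874 under OA. The order was that of ZFP36L2 and BTG2, with control lowest and OA highest. ZC3H12A was 6.02-fold above control under CAN (2.59 ± 0.09) and 10.7-fold under OA (3.42 ± 0.07), and OA exceeded CAN 1.78-fold.

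ELAVL1, which protects AU-rich transcripts, was the gene of the group that was lower under both agents. Its intensity was 1443 in control cells, 413 under CAN and 936 under OA. The CAN signal was the lowest and the OA signal lay between it and control. ELAVL1 was 3.17-fold lower under CAN (-1.67 ± 0.09) and 1.84-fold lower under OA (-0.88 ± 0.08), and was 1.72-fold higher under OA than under CAN. Across the arrays, 6 genes were thus called higher under both agents, 1 was lower under both (ELAVL1) and 1 had opposite directions (ZFP36L1). TOB1 was called under OA alone and ZFP36 under neither. The shares of all genes in these joint classes are not given here. Both comparisons used the same control array, so the joint counts are a description. Whether TOB1 responded differently to the agents could not be tested with 1 array each.

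**Figure D2:**
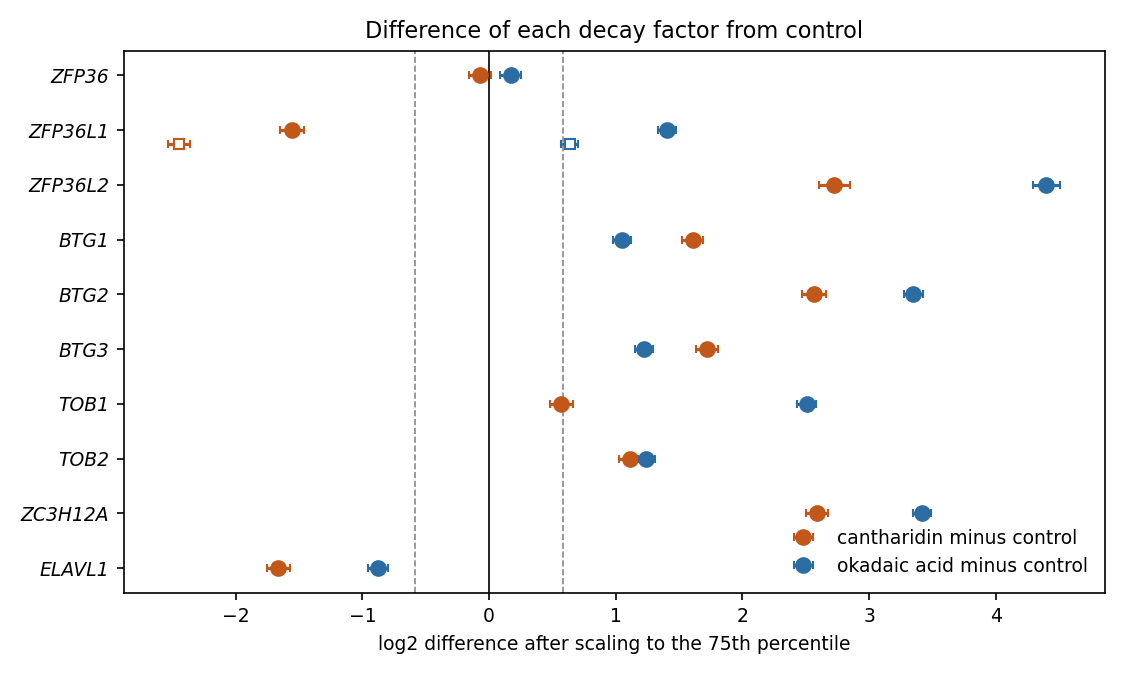
Differences of the 10 decay factors from control. The horizontal axis is the log2 difference after scaling to the 75th percentile, orange for cantharidin and blue for okadaic acid, with open squares for the dimmer ZFP36L1 probe. Bars are the SD expected from spot noise with 1 spot per array and dashed lines mark 1.5-fold. ZFP36L2, BTG1, BTG2, BTG3, TOB2 and ZC3H12A lie to the right of the dashed lines on both colours. ELAVL1 lies to the left on both, and ZFP36L1 lies on opposite sides.

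In the pair of differences from control, BTG2 and ZC3H12A lay closest together of all pairs in the group, 0.07 log2 units apart, and BTG1 and BTG3 were the next, 0.20 apart. ZFP36L2 had the largest difference under each agent as processed here (not under CAN with normexp), and so the genes most like it were sought among the 14222 genes measured on all arrays. The closest were ZNF530 (2.72 and 4.45 under CAN and OA, a distance of 0.05 from ZFP36L2), SHISA2 (2.64 and 4.42, 0.09) and GAL (2.87 and 4.60, 0.25). These distances rest on 2 differences that share the control array, and are a description.

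The machinery that these proteins recruit was looked at through lists of genes, and genes named without values were chosen after the values were seen. A gene stands for its brightest probe. The list counts below stand beside 27.5% of all genes called higher and 34.1% lower under CAN. Under OA the shares of all genes were 28.1% higher and 28.8% lower. Of the list genes called under CAN with more than 1 probe, 12 of 22 had every probe past the threshold, and 10 of 23 under OA. Of the CCR4-NOT and PAN2-PAN3 deadenylase genes, 14 were measured, and 6 were higher and 3 lower under CAN (median 0.27), with 8 higher and 1 lower under OA (0.64). CNOT2, CNOT3, CNOT4, CNOT10, CNOT11 and PARN were higher under both agents, and CNOT8, a catalytic subunit gene, was lower under both. CNOT10, a scaffold-associated subunit, went from 603 in control cells to 1282 under CAN and 7021 under OA (log2 differences 1.23 and 3.29). CNOT4, a ubiquitin ligase subunit, had 255, 1561 and 1109 on its brightest probe (2.75 and 1.87), but its 4 probes ranged from -0.41 to 2.75 under CAN and from -0.12 to 1.87 under OA. CNOT7, another catalytic subunit gene, also chosen afterwards, was lower under CAN (-1.27) and within 1.5-fold under OA (-0.29). Its other probe was at -0.26 under CAN, within 1.5-fold. The catalytic subunit gene CNOT6L was within 1.5-fold under CAN and OA (-0.14 and -0.08), with 0.05 and 0.67 on its other probe. CNOT6, the remaining catalytic subunit gene, had no matched probe.

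The decapping list was split between directions. Of its 16 genes, 5 were higher and 7 lower under CAN, and 6 were higher and 6 lower under OA. The genes higher under both agents were the decapping cofactors DCP1A, DCP1B, EDC3, EDC4 and PATL1, and those lower under both were DCPS, DDX6 and the Lsm ring genes LSM2, LSM4, LSM5 and LSM6. The probes of DDX6 disagreed, since the brighter was at -1.51 and -2.04 and the other at 0.68 and 1.24 under CAN and OA. The other probe of EDC4 was within 1.5-fold (0.09 and 0.20, against 0.87 and 1.40). DCP1A, an activator of the decapping enzyme, had 1789 in control cells, 17788 under CAN and 40979 under OA, which is 10.9-fold and 19.2-fold above control, and its other probe gave log2 differences of 3.01 and 3.27. LSM4 was at -2.95 and -2.49, LSM5 at -2.63 and -1.63, and LSM6 at -2.25 and -2.69 under CAN and OA.

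Of the exosome, which degrades RNA from its 3′ end, 15 genes were compared. Of these, 2 were higher and 10 lower under CAN (median -1.31), with 2 higher and 6 lower under OA (-0.44). Over all genes, 27.5% were higher and 34.1% lower under CAN, and 28.1% and 28.8% under OA. EXOSC5 went from 989 in control cells to 96.7 under CAN and 407 under OA (-3.22 and -1.54). EXOSC7 and the SKI complex gene SKIC8 were also lower under both agents, at -1.47 and -2.45 and at -1.31 and -2.87. EXOSC4 went the other way, from 1521 to 5683 and 14174 (2.04 and 2.96), and EXOSC1, named after its values were seen, was the remaining higher gene.

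Among 12 further proteins that bind AU-rich or stem-loop elements, 3 were higher and 3 lower under CAN, and 5 higher and 3 lower under OA. ARID5A, which protects some of the transcripts that ZC3H12A cuts, had 507 in control cells, 4141 under CAN and 5815 under OA (3.17 and 3.27), but its other probe gave only 0.45 and 0.50. HNRNPD (AUF1) had opposite directions, with 18310 in control cells, 10858 under CAN and 35624 under OA (-0.62 and 0.70). Its other probe was at -2.58 under CAN and at 0.38, within 1.5-fold, under OA. The opposite calls of HNRNPD depended on the processing, since the CAN call held under 7 of 10 alternatives and the OA call under 8 of 10. Of 7 genes for poly(A)-binding proteins and proteins that interact with them, 4 were higher and 2 lower under CAN, and 1 was lower under OA. The higher genes were all poly(A)-binding protein genes. The lower genes were of interacting proteins, PAIP1 and PAIP2B under CAN and PAIP1 under OA. PABPC1, PABPC3 and PABPC4 were higher under CAN and lower on the OA than on the CAN array. The 4 higher genes were close to the threshold, and 1 was called without scaling and 0 at 2-fold. The other probe of PABPC4 was within 1.5-fold, at 0.30 under CAN and -0.36 for OA against CAN.

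Kinases and partners that act on ZFP36 were compared for 12 genes, of which 2 were higher and 5 lower under CAN, and 2 higher and 4 lower under OA. MAPK13, a p38 kinase gene, had 109 in control cells, 456 under CAN and 201 under OA (2.20 and 0.62), with 1.23 and -0.01 on its other probe, and its OA call held under 6 of 10 alternatives. MAPKAPK2, named after its values were seen, was the other kinase gene higher under CAN. The remaining p38 kinase genes were lower under CAN, MAPK14 at -0.82, MAPK11 at -1.10 and MAPK12 by a bound of at least 3.70-fold. MAPK11 (-0.77, with -0.08 on its other probe) and MAPK12 (at least 1.83-fold) were also lower under OA, and MAPK14 was within 1.5-fold. Of 7 paralogues of the 10 genes, 1 was well above background on both arrays of each comparison with control, and by bounds ZC3H12C was called higher and ZC3H12B lower under both agents. Over all lists up to here, paralogues included, 24 of 81 genes were higher and 32 lower under CAN (median -0.14), and 24 of 80 were higher and 22 lower under OA (-0.12), shares that lie near those of all genes.

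**Figure D3:**
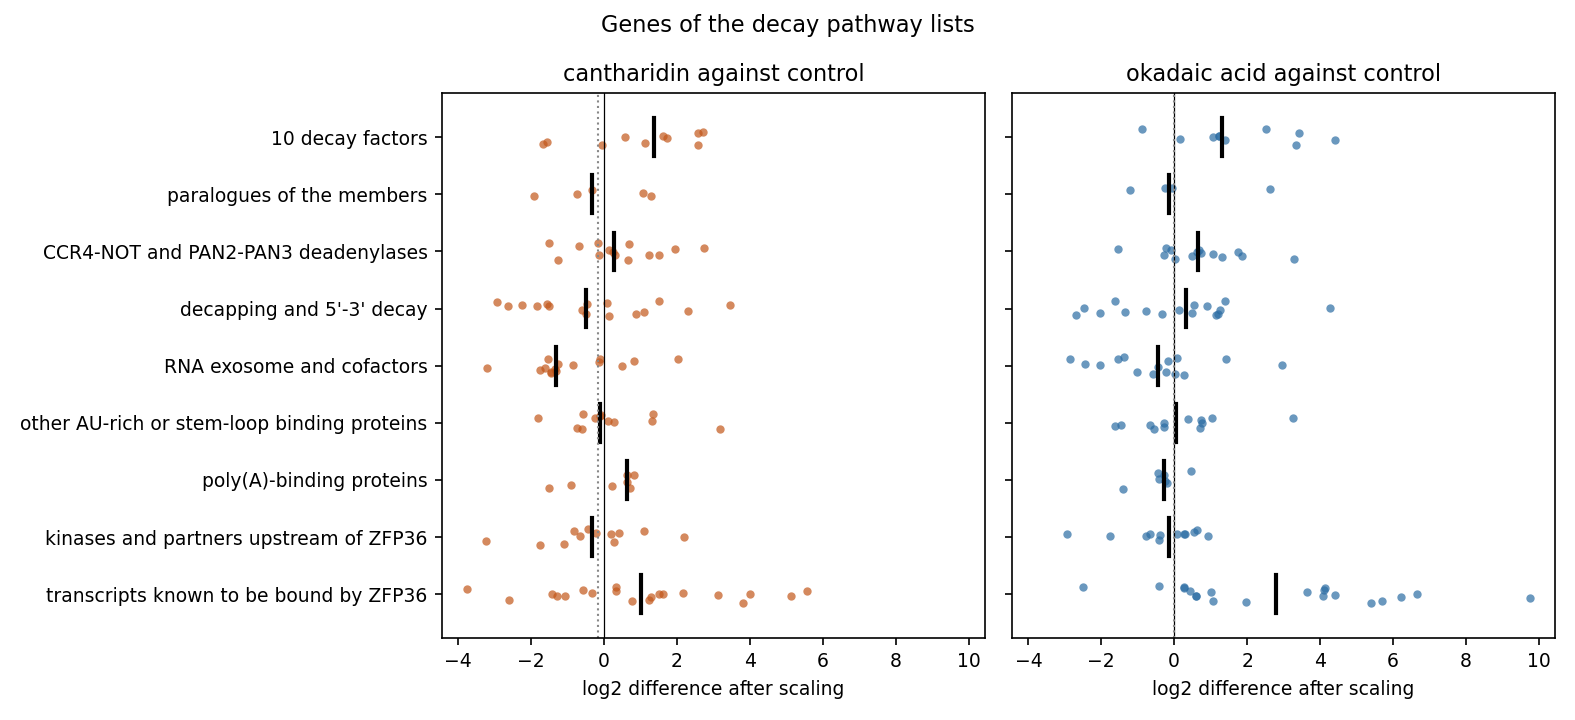
Log2 differences from control of the 10 decay factors and of the decay pathway lists, for cantharidin on the left and okadaic acid on the right. Each dot is 1 gene that passed the background filter in that comparison, vertical bars are list medians and the dotted line is the median of all genes. The decay factors, the transcripts bound by ZFP36, the deadenylases and, slightly, the other AU-rich or stem-loop binding proteins have medians to the right of the dotted line under both agents. The exosome, kinase and paralogue lists have their medians to the left under both. The decapping and poly(A)-binding lists change side between the agents.

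The transcripts that ZFP36 is known to bind were the list with the widest range. Of 20 such genes, 11 were higher and 5 lower under CAN (median 1.0), and 15 were higher and 1 lower under OA (median 2.80). Over all genes, 27.5% were higher and 34.1% lower under CAN, and 28.1% and 28.8% under OA. OA exceeded CAN by at least 1.5-fold for 16 of the 20 genes and was lower for VEGFA, at -1.17 on the brighter probe but 0.10 on the other. CCL20, a chemokine gene, had 369 in control cells, 4682 under CAN and 22880 under OA, 14.0-fold and 51.9-fold above control. IL23A (5.14 and 9.76), CXCL8 (5.57 and 6.65) and CXCL2 (1.61 and 6.22) had the other largest differences, with 0.58 and 4.23 on the other probe of CXCL2. The 5 lower genes under CAN, named after their values were seen, were MYC, CCND1, IER3, PIM1 and DUSP1, and MYC was the only 1 of them lower under OA. IER3 (-1.42 and 1.07, with the same directions on its other probe) and DUSP1 (-1.30 and 0.59) were on opposite sides of control under the agents, and the OA value of DUSP1 lay at the threshold. The list holds 7 genes that the study picked from these arrays (TNF, CSF2, CXCL8, CXCL1, CXCL2, CXCL3 and VEGFA), so its direction is not independent evidence. No array measured mRNA stability, and steady-state signals do not separate synthesis from decay.

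Markers of the labelled cell type were present. All 7 epithelial and ductal markers were well above background in control cells, and 6 of 7 under each agent, where CDH1 was not. Of 12 markers of other cell types, 9, 8 and 8 were well above background on the control, CAN and OA arrays, while PECAM1, CPA1 and ALB were not on any array. The summed intensity of the epithelial markers was 158872, 166088 and 273445, of which KRT18 gave 70664, 127869 and 193320. Against control, 4 of the 7 were lower and 1 higher under CAN (median -1.17), and 4 lower and 2 higher under OA (-0.74). EPCAM, CDH1 and SOX9 were lower under both, with SOX9 at -2.92 and -1.76. The summed intensity of the other markers was 5300, 4001 and 13613, most of it from CD14 on the OA array (11044, against 2535 in control cells). Their part in the differences of the decay factors was not tested.

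**Figure D4:**
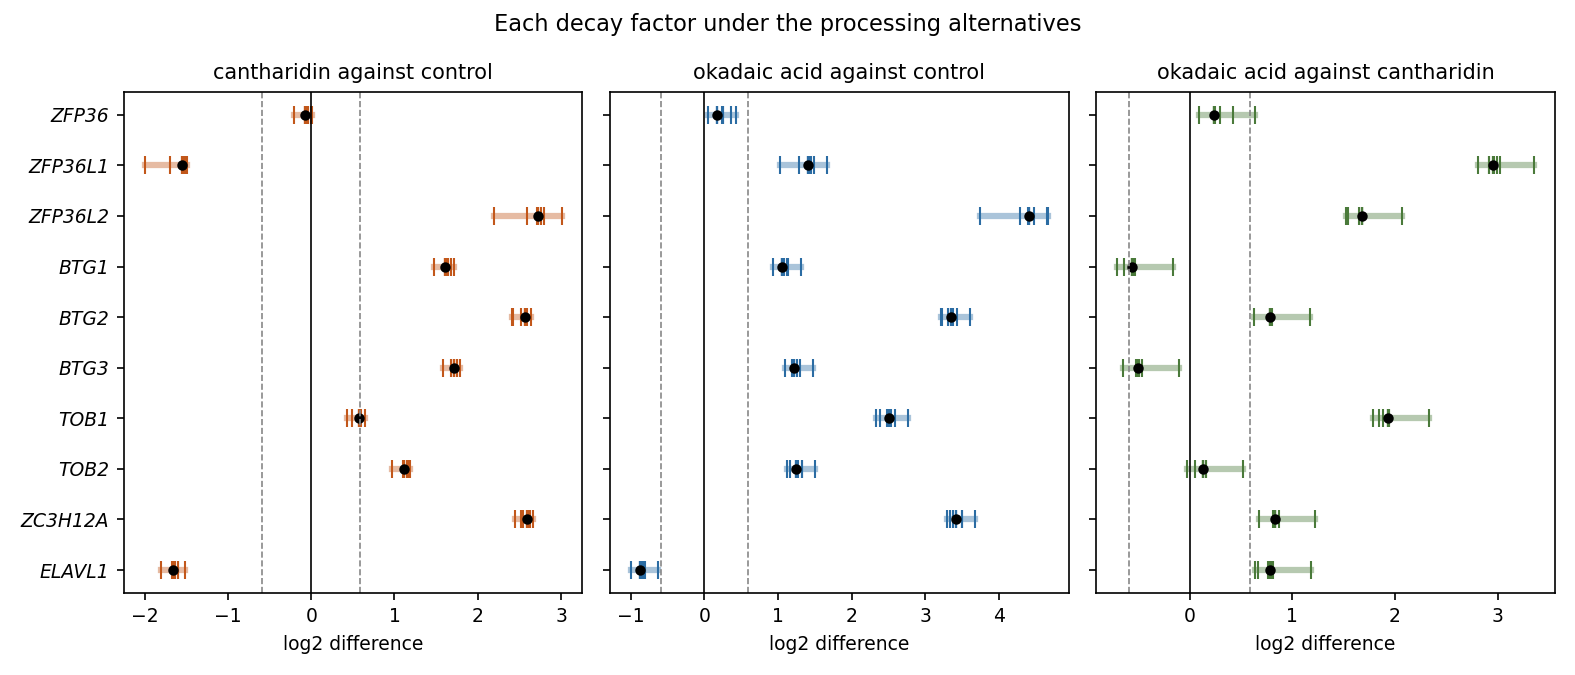
Log2 differences of the 10 decay factors under other ways of processing the arrays, with 1 panel per comparison. The black dot is the value in the text, ticks are the values under the alternatives, coloured bars span their range and dashed lines mark 1.5-fold. Against control, the range of TOB1 under cantharidin is the one that crosses a dashed line.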

How the data were processed

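Expression was measured on 3 Agilent 1-colour arrays (Cy3) of total RNA, grouped by their titles. The authors deposited scanner output with intensity values from Feature Extraction 11.0.1.1 (annotation hg19), background-subtracted within each array per the file headers. A second deposited table, with log2 values after a normalization not given in the sources used here, covered 30923 probes and served as an alternative. Spots with outlier flags were left out, log2 intensity was averaged over the spots of a probe, and each array's 75th percentile was subtracted. Probes were named by RefSeq accession without version (GRCh38.p14), which named 25705 of 34041, and CNOT6 and GIGYF1 had no matched probe. For a gene with several probes, the brightest on average over the arrays was used. A gene was compared if either array had it well above background and called at 1.5-fold, and no p-value was computed.

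The 10 genes, the lists and the rules were chosen with earlier results of these data known. Of each list, genes past 1.5-fold in opposite directions or past 4-fold under an agent were named, at most 4 with the largest change, and for the gene of the group with the largest change the 3 genes with the nearest pair of differences. There were 11 alternatives (scaling, background correction, filter, floor, threshold, probe choice, deposited table). The normexp correction (offset 50) used the median spot intensity. The calling script was tested on simulated data. Software was Python 3.11.15 (numpy 2.4.6, pandas 2.3.3, matplotlib 3.10.9) and R 4.3.3 (limma 3.58.1). Precision is limited by the number of arrays.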

Additional observations from a re-analysis of the deposited data

Results flagged for a closer look

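ZFP36L1 was lower than control under cantharidin (log2 difference -1.56) and higher under okadaic acid (1.40), a gap of 2.96 between the treated arrays, and the opposite directions were the reason for listing it. Its other probe had the same directions. The difference between the agents was not tested, since each had 1 array.

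HNRNPD also had opposite directions, at -0.62 under cantharidin and 0.70 under okadaic acid, each just past 1.5-fold. Its other probe was lower under cantharidin and within 1.5-fold under okadaic acid. The call was lost under cantharidin with 3 of 10 alternatives (to -0.55) and under okadaic acid with 2 of 10 (to 0.54).

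Among transcripts bound by ZFP36, IER3 was at -1.42 under cantharidin and 1.07 under okadaic acid, and DUSP1 at -1.30 and 0.59. The calls of IER3 held under all 10 alternatives, and that of DUSP1 under okadaic acid was lost with scaling to the median (0.47). For none of these genes was the difference between the agents tested.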

How the results depend on the processing

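Against control, each of the 10 genes kept its call in the 10 alternatives that changed values, apart from TOB1 under cantharidin, which kept it in 6 of 10 (0.43 to 0.64). The difference of ZFP36 under cantharidin, within 1.5-fold throughout, turned to 0.01 with normexp. At a 2-fold threshold, 0 of the 10 genes were lower under okadaic acid and 3 were higher under okadaic acid than under cantharidin. In that comparison of the treated arrays, 2 of the genes were lower with scaling to the median and 1 with normexp, ZFP36 reached 0.63 without scaling and TOB2 turned to -0.02 with scaling to the median. Of the machinery lists, 15 genes were higher under okadaic acid than in control at 2-fold, and 11 were higher and 8 lower than under cantharidin. Without scaling, 9 were lower than under cantharidin. Leaving out the scaling moved the median of all genes by -0.14 under cantharidin, 0.26 under okadaic acid and 0.39 between the treated arrays, and scaling to the median moved the latter pair by -0.12 and -0.15. The remaining 124 counts over the 10 genes or over these lists pooled stayed within 1.5 times of the values in the text. Counts of single lists are smaller and moved more, 28 of 48 by over 1.5 times under at least 1 alternative. No paired analysis was possible because each group had 1 array. The lowest measurable signal differed between arrays, which bears on dim genes such as the paralogues. The 10 genes were well above background on every array. ZFP36L2 was the dimmest of them in control cells, at 4.41 times the lowest such intensity, and its differences moved with the background correction.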
